A study of Mus musculus with 8 samples.

Results

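Ciliated airway cells line the bronchi of the lung and beat in waves that carry mucus outward. The 40 genes described here were chosen by name, as genes of the ciliary beating apparatus, of the programme that builds it, or with known high expression in ciliated cells, and they are 40 of 20738 named genes on the array. The tested animals were 4 mice overexpressing the transcription factor Fra-2 (Fra-2 TG), and the animals they were set against were 4 wild-type mice. All were on the C57BL/6 background and 8 weeks old, and the labels list no treatment. Whole lung RNA was hybridised to single-colour Agilent arrays, 1 per sample. The labels number the samples of each group from 1 to 4, and each is called a mouse here. They do not state that each number is a separate animal, so the p-values measure the spread between these samples. Fra-2 is the product of Fosl2 and belongs to the AP-1 family. The promoter that drives the transgene is not given in the sources used here.

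A motile cilium is built on a ring of paired microtubules around a central pair. Outer and inner dynein arms, motor complexes fixed to the paired microtubules, slide them against each other, and radial spokes and the nexin links between neighbours turn that sliding into bending. In a cell that makes many cilia, Mcidas and Ccno drive the amplification of centrioles, Myb and Rfx factors act alongside, and Foxj1 switches on the structural genes. Inherited loss of arm, spoke or assembly proteins causes primary ciliary dyskinesia, in which mucus is not cleared from the airways.

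Levels below are the log2 of the deposited normalised intensity. The floor for dim signals is the median of all spots, 4.74 on that scale. All 40 genes had a spot, all 40 had a group mean above the floor in at least 1 group, and none was filtered out. The 9 alveolar type 2 genes, which mark lung tissue, had mean levels of 14.36 to 14.70 in transgenic and 14.44 to 14.73 in wild-type mice. Different spots bind with different strength, so levels are compared between mice and not between genes. In whole lung, fewer ciliated cells and less RNA per ciliated cell cannot be told apart. Mouse 4 of each group stood apart: its mean correlation with the other arrays of its group was 0.979 in the transgenic group and 0.976 in the wild-type group, against 0.984 to 0.985 and 0.983 for mice 1 to 3. Results are therefore given with and without these mice. The brighter of the 2 Fosl2 spots read 9.38 to 10.63 in transgenic and 10.12 to 11.01 in wild-type mice, and the dimmer spot read 6.35 to 7.85 and 3.44 to 5.58, so the targeted gene does not check the labels in 1 direction.

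Ciliated cell genes varied together between mice, and no difference between the genotypes passed the test. None of the 40 passed the test between transgenic and wild-type lung (limma, adjusted p from 0.504 to 0.961), where 0.222% of all genes passed (0.13% higher and 0.0916% lower). Of the 40 differences, 38 were negative and 2 were positive, Ccdc39 and Rfx3. The median difference was -0.28, beside 0.01 over all genes. At an unadjusted limma p under 0.05, 2 of the 40 were lower in transgenic lung (Cdhr4 and Tppp3), where 3.83% of all genes were. In no member did all 4 transgenic values lie below all 4 wild-type values, which was the case for 2.53% of all genes.

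The number of negative differences depended mainly on wild-type mouse 4. Without transgenic mouse 4 alone, 35 differences were negative, with a median of -0.20. Without wild-type mouse 4, 26 differences were negative and 14 positive, with a median of -0.09. Without mouse 4 of both groups, 19 were negative and 21 positive, with a median of 0.00. No member passed in either fit (limma), where 0.169% and 0.082% of all genes passed, and at an unadjusted p under 0.05 there was 1 member in each, Rfx2, where 9.76% and 10.9% of all genes were. The 95% intervals of the differences over all 8 mice held 0 for 38 of the 40 genes. For 30 of all 40 genes the interval lay wholly above -1, a 2-fold lower level.

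**Figure D1:**
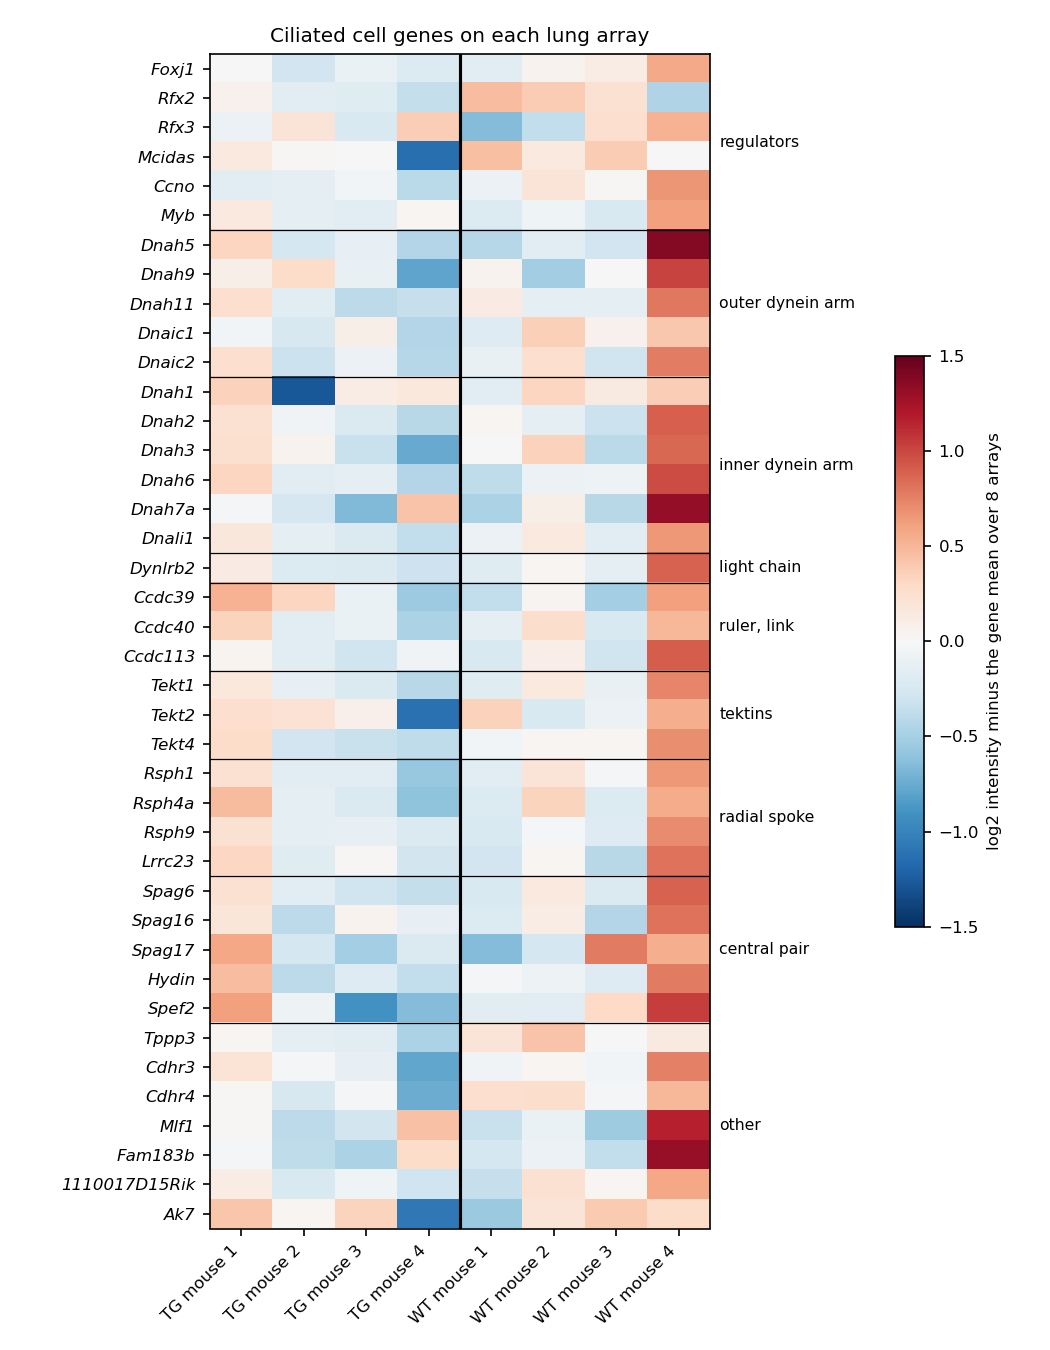
Log2 intensity of each gene (rows, by role) on each array (columns, transgenic left of the black line, wild type right), as the deviation from the gene's mean over 8 arrays; red is higher and blue is lower. Wild-type mouse 4 is the highest array for 35 of the 40 genes, and transgenic mouse 4 is the lowest for 23.

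The common pattern can be read as a mean deviation, the average over the 40 genes of each gene's distance from its own mean. It was 0.20, -0.17, -0.18 and -0.37 in transgenic mice 1 to 4 and -0.15, 0.06, -0.09 and 0.69 in wild-type mice 1 to 4. Wild-type mouse 4 stood above the other 7 mice and transgenic mouse 4 below them, while transgenic mice 1 to 3 and wild-type mice 1 to 3 overlapped. Wild-type mouse 4 held the highest of the 8 values for 35 of 40 members (87.5%), beside 22.5% of all genes. Transgenic mouse 4 held the lowest value for 23 of 40 (57.5%), beside 18.8% of all genes. Transgenic mouse 1 was the highest of its group for 33 of 40 (82.5%), beside 22.6% of all genes. The group means of the deviation were -0.13 ± 0.24 in transgenic and 0.13 ± 0.39 in wild-type lung (SD, n = 4 each), and the wild-type SD over mice 1 to 3 alone was 0.11.

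Of the 6 regulators, 4 were highest in wild-type mouse 4, and their median difference was -0.30. Foxj1, the transcription factor that switches on motile ciliary genes, read 10.89, 10.60, 10.79 and 10.68 in transgenic mice 1 to 4 and 10.73, 10.93, 10.99 and 11.46 in wild-type mice 1 to 4. The groups overlapped, and wild-type mouse 4 was the highest. The difference was -0.29 (SE 0.17, limma adjusted p = 0.660), with a 95% interval of -0.68 to 0.10, and it was -0.15 without wild-type mouse 4.

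Mcidas encodes multicilin, which starts the multiciliated programme, and Ccno, its neighbour on chromosome 13, encodes a cyclin-like protein needed to amplify centrioles. The Mcidas spot, listed on the platform under the older name Gm6320, read 13.19, 13.06, 13.05 and 11.91 in transgenic mice and 13.50, 13.20, 13.43 and 13.04 in wild-type mice. Transgenic mouse 4 lay below all other arrays, and wild-type mouse 4 was the lowest of its group, so the Mcidas spot did not follow the common pattern. This spot had the highest mean of the 40 members, 13.05, and what it reads could not be checked. Its difference was -0.49 (SE 0.29, limma adjusted p = 0.658) and -0.27 without mouse 4 of both groups. Ccno read 8.44, 8.47, 8.57 and 8.21 in transgenic mice and 8.52, 8.81, 8.63 and 9.27 in wild-type mice. The groups overlapped only through transgenic mouse 3 and wild-type mouse 1, and the difference was -0.39 (SE 0.18, limma adjusted p = 0.581; exact permutation p = 0.0571, two-sided, where 4 against 4 mice can reach 0.0286). It was -0.16 without mouse 4 of both groups.

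Rfx2 and Rfx3 encode factors that bind the X-box of ciliary gene promoters. Rfx2 read 6.36, 6.14, 6.12 and 5.95 in transgenic mice and 6.76, 6.68, 6.53 and 5.84 in wild-type mice. Wild-type mice 1 to 3 all lay above the 4 transgenic mice, and wild-type mouse 4, the highest array for most other members, was the lowest of all 8 for Rfx2. The difference was -0.31 (SE 0.22, limma adjusted p = 0.707). Without wild-type mouse 4 it was -0.51, which did not pass either (limma adjusted p = 0.294). Rfx3 was dim, with 4.74, 5.02, 4.60 and 5.20 in transgenic mice and 4.18, 4.46, 5.09 and 5.35 in wild-type mice, and 1 transgenic and 2 wild-type values lay under the floor. The Rfx3 difference was 0.12 (SE 0.28, limma adjusted p = 0.922). A further Rfx3 spot above the floor gave 0.29 (SE 0.27), while one under the floor gave -0.98, so the spots disagree in sign.

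Myb is a transcription factor of early ciliated cells and also of blood cell progenitors, so in whole lung it is not specific to the airway. It read 9.27, 8.98, 8.96 and 9.15 in transgenic mice and 8.91, 9.06, 8.89 and 9.74 in wild-type mice. The groups overlapped except for wild-type mouse 4, and the difference was -0.06 (SE 0.20, limma adjusted p = 0.949).

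**Figure D2:**
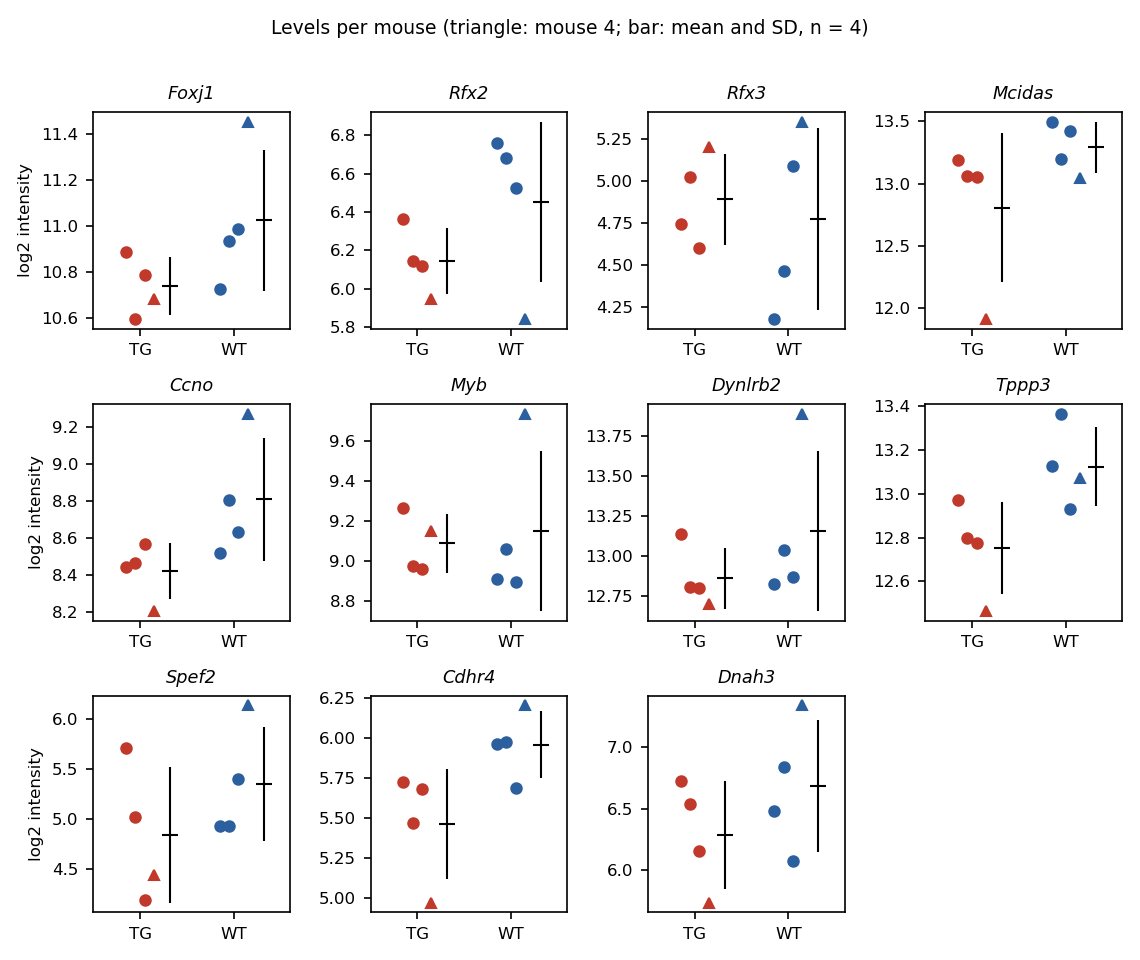
Log2 intensity per mouse for the 6 regulators and 5 further members, transgenic left and wild type right; circles are mice 1 to 3, triangles are mouse 4, and bars show the group mean and SD (n = 4); each panel has its own scale. Wild-type mouse 4 is the highest wild-type value in all panels but those of Rfx2, Mcidas and Tppp3.

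Promoter sequence is shown because Rfx factors bind the X-box of ciliary gene promoters, and a link between these letters and the levels was not tested. The window runs from 250 bases before to 50 bases after the start of transcription in RefSeq annotation of GRCm38.p6, with the first promoter listed per gene, and 35 of the 40 members had one. The letters GTTGCC, 1 arm of the X-box, were searched on both strands (GGCAAC is the other strand). They stood in 20 of the 35 member promoters (57.1%) and in 12.7% of all 27025 promoters. The full X-box was searched too, in 1 form with both arms and a fixed gap between them. That form stood in 0 of the 35 and in 0.44% of all. Forms with another gap, or with other letters in the second arm, were not searched. The letters beside the matches, as in Dynlrb2 below, were not compared with such forms. Whether the matches in members are single arms or parts of full X-boxes therefore cannot be told from this count. The forkhead core GTAAACA stood, on either strand, in 3 of the 35 (8.57%) and in 3.55% of all. A match describes letters and not a bound site. Below are 4 promoters, each read 5′ to 3′ on the strand of its gene, with matches to the X-box arm in capitals: those of Dynlrb2, one of the brightest members, at chr8:116504765-116505064 (plus strand), Tekt1 at chr11:72361833-72362132 (minus), Fam183b at chr11:58801911-58802210 (minus) and Spag16 at chr1:69826720-69827019 (plus), the last 3 with 2 matches each.
Dynlrb2: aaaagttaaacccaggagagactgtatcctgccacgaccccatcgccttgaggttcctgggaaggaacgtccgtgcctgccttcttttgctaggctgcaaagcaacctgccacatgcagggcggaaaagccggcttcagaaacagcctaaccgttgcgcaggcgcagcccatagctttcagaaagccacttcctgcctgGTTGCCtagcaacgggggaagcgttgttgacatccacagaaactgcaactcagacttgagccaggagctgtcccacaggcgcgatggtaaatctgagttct
Tekt1: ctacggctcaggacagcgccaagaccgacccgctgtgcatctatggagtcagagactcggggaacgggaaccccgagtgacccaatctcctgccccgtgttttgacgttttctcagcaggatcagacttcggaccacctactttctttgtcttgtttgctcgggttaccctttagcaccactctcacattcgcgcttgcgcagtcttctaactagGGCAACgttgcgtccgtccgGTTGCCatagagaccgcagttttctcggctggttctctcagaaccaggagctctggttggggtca
Fam183b: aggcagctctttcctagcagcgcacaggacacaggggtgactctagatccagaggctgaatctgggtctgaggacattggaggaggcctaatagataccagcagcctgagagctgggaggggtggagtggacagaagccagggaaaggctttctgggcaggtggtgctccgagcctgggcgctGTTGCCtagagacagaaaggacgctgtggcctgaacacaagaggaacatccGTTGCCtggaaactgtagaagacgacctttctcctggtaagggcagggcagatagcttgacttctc
Spag16: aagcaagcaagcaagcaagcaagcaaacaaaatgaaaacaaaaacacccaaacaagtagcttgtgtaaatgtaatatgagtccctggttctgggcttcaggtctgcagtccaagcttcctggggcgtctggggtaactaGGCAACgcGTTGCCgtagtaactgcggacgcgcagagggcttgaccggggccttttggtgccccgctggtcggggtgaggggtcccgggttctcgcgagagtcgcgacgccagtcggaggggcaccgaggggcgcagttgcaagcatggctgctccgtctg
In Spag16 the matches lie on opposite strands, 2 bases apart, but in the reverse order of the arms of the form searched. The letters gtagtaac that follow GTTGCC there were not counted as the other arm. In Tekt1 they begin 35 and 15 bases before the start, and in Fam183b 67 and 16 bases before it. Levels of all 4 genes were highest in wild-type mouse 4, as were those of 35 of all 40 members, among them members without a match such as Dnah5.

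Outer dynein arm genes showed the common pattern at full size. They were the heavy chain motors Dnah5, Dnah9 and Dnah11 and the intermediate chains Dnaic1 and Dnaic2. All 5 were highest in wild-type mouse 4, with a mean deviation of 0.87 there, and 4 of 5 were lowest in transgenic mouse 4, at -0.49. The 5 differences ran from -0.32 to -0.25, and none passed (limma, adjusted p at least 0.645). Dnah5, the motor most often altered in ciliary dyskinesia, read 9.62, 9.03, 9.18 and 8.86 in transgenic mice and 8.87, 9.14, 9.01 and 10.68 in wild-type mice. Wild-type mice 1 to 3 lay within the transgenic range, while wild-type mouse 4 was 3.17-fold above their mean. The Dnah5 difference was -0.25 (SE 0.40, limma adjusted p = 0.880) and turned to 0.16 without wild-type mouse 4.

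Inner dynein arm genes, which shape the bend, behaved alike. Dnah1, Dnah2, Dnah3, Dnah6, Dnah7a and Dnali1 were all highest in wild-type mouse 4, and their 6 differences ran from -0.40 to -0.22 with none past the test (limma, adjusted p at least 0.730). Dnah3, a heavy chain whose spot carries the older name Dnahc3, read 6.72, 6.54, 6.15 and 5.73 in transgenic mice and 6.48, 6.84, 6.08 and 7.34 in wild-type mice. The groups overlapped over most of their range, and the difference of -0.40 (SE 0.31, limma adjusted p = 0.740) was 0.01 without mouse 4 of both groups. Dnah3's old name is also listed as an older name of Dnah12, so which of the 2 its spot reads is uncertain. Dnah7a has near copies in Dnah7b and Dnah7c, so its spot may read several of them. Dnah1 was near the floor, with 4.61 ± 0.74 in transgenic and 4.94 ± 0.25 in wild-type lung (SD, n = 4 each).

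Dynlrb2, a light chain of the roadblock family, read 13.14, 12.80, 12.80 and 12.70 in transgenic mice and 12.83, 13.04, 12.87 and 13.89 in wild-type mice. Apart from wild-type mouse 4, 1.97-fold above the mean of the other wild-type mice, the groups overlapped. The difference was -0.30 (SE 0.25, limma adjusted p = 0.756), and 0.00 without mouse 4 of both groups.

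The genes that place the arms and links along the microtubules were Ccdc39 and Ccdc40, which form the ruler, and Ccdc113, a coiled-coil protein of the axoneme. All 3 were highest in wild-type mouse 4. Ccdc39 was 6.56 ± 0.47 in transgenic and 6.45 ± 0.50 in wild-type lung (SD, n = 4 each), a difference of 0.10 (SE 0.31), against -0.20 (SE 0.22) for its partner Ccdc40. Neither passed (limma adjusted p = 0.944 and 0.826). Without mouse 4 of both groups the Ccdc39 difference was 0.53 and that of Ccdc40 was 0.06.

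Tektins are filament proteins inside the paired microtubules. Tekt1, Tekt2 and Tekt4 were all highest in wild-type mouse 4 and all lowest in transgenic mouse 4, with differences from -0.36 to -0.29 (limma, adjusted p at least 0.672). Tekt1 was read by 2 spots with the same course over the 8 mice, and their differences were -0.30 (SE 0.23) and -0.28 (SE 0.23). Tekt2 differed most between transgenic mice, with 6.98, 6.94 and 6.79 in mice 1 to 3 and 5.60 in mouse 4.

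Radial spoke genes were Rsph1, Rsph4a and Rsph9, which form the spoke head and neck, and Lrrc23, a spoke protein with leucine-rich repeats. All 4 were highest in wild-type mouse 4, with differences from -0.33 (Rsph1) to -0.07 (Lrrc23) and none past the test (limma, adjusted p at least 0.707). Rsph1 was 10.25 ± 0.33 in transgenic and 10.58 ± 0.36 in wild-type lung, and Lrrc23 was 10.59 ± 0.26 and 10.66 ± 0.55 (SD, n = 4 each). Their further spots above the floor gave -0.32 (SE 0.25) for Rsph1 and -0.52 (SE 0.31) for Rsph4a, beside -0.33 and -0.23 for the brighter ones. Without mouse 4 of both groups the 4 differences had a median of 0.10.

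Central pair genes were Spag6, Spag16, Spag17, Hydin and Spef2, which build projections on the central microtubules. The 5 differences ran from -0.51 (Spef2) to -0.14 (Spag16), and none passed (limma, adjusted p at least 0.736). Spef2 read 5.71, 5.03, 4.19 and 4.45 in transgenic mice and 4.93, 4.93, 5.40 and 6.14 in wild-type mice. The groups overlapped, 2 transgenic values lay under the floor, and the difference of -0.51 (SE 0.39, limma adjusted p = 0.736) was -0.11 without mouse 4 of both groups. The spot listed as Spag6 is annotated to its close relative Spag6l, so the spot may read either. Hydin had 2 spots above the floor, with differences of -0.24 (SE 0.27) and -0.41 (SE 0.24).

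The remaining members are ciliated cell genes outside these structures. Tppp3, a tubulin-binding protein, read 12.97, 12.80, 12.78 and 12.47 in transgenic mice and 13.13, 13.37, 12.93 and 13.07 in wild-type mice. It did not peak in wild-type mouse 4, and the groups overlapped only because transgenic mouse 1 lay above wild-type mouse 3. The Tppp3 difference was -0.37 (SE 0.15, limma adjusted p = 0.515; exact permutation p = 0.0571, two-sided), -0.39 without wild-type mouse 4 and -0.29 without mouse 4 of both groups. Cdhr4, a cadherin-related protein, read 5.72, 5.47, 5.68 and 4.97 in transgenic mice and 5.97, 5.98, 5.69 and 6.21 in wild-type mice. Its groups overlapped only through transgenic mouse 1 and wild-type mouse 3. The Cdhr4 difference was -0.50 (SE 0.20, limma adjusted p = 0.504; exact permutation p = 0.0571, two-sided), and -0.25 without mouse 4 of both groups.

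Cdhr3, the related cadherin known in humans as a receptor for rhinovirus C, had a difference of -0.35 (SE 0.26, limma adjusted p = 0.727) and 0.04 without mouse 4 of both groups. Ak7, an adenylate kinase of the cilium, read 6.73, 6.34, 6.64 and 5.24 in transgenic mice and 5.75, 6.51, 6.70 and 6.58 in wild-type mice, so its lowest values were in 1 mouse of each group. The differences of 1110017D15Rik (-0.25, and -0.30 by its other spot), Mlf1 (-0.10) and Fam183b (-0.30) did not pass either (limma, adjusted p at least 0.758).

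**Figure D3:**
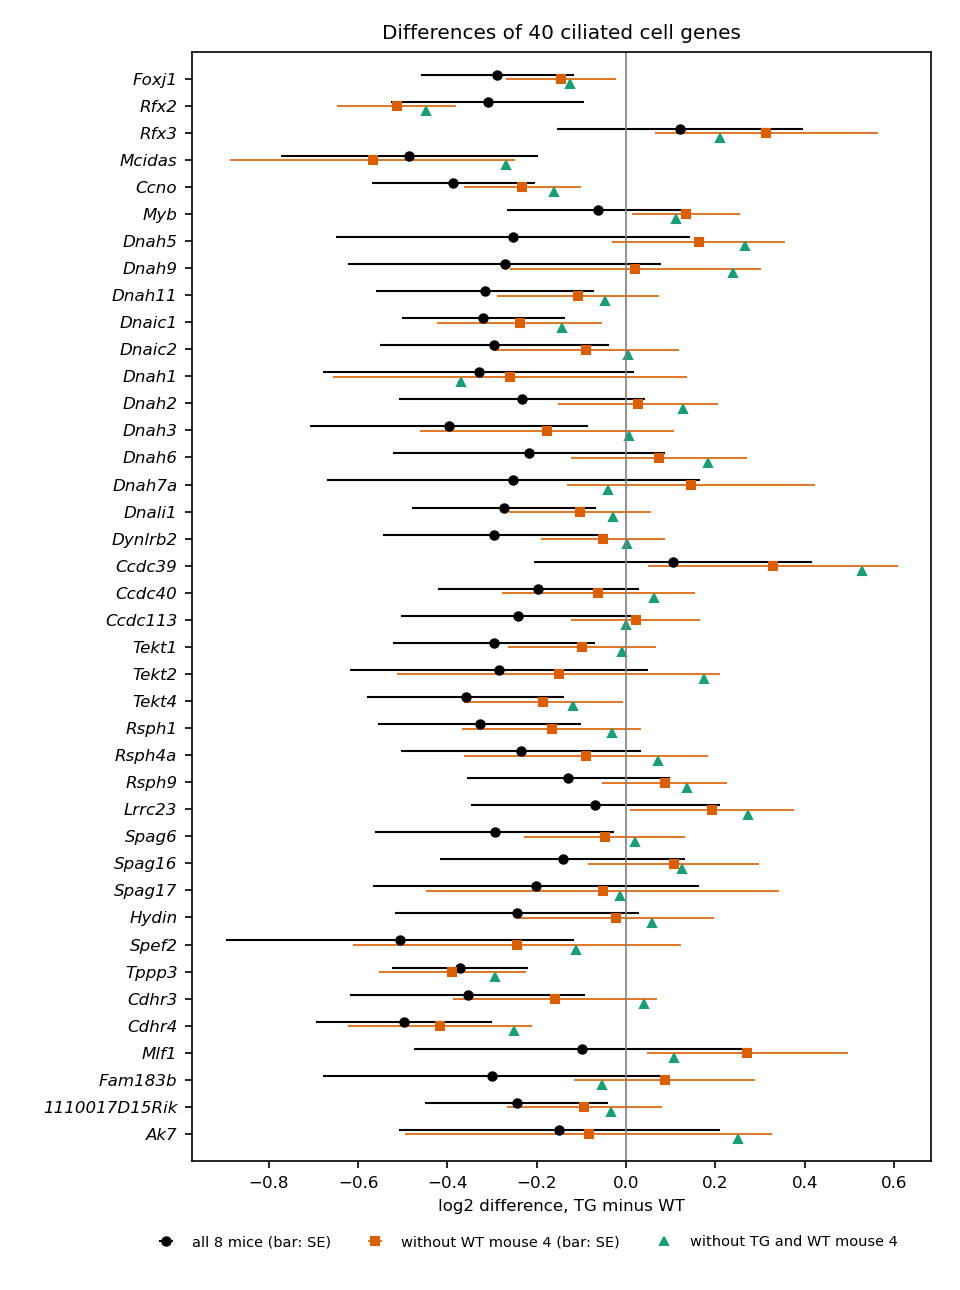
Log2 difference, transgenic minus wild type, for each of the 40 genes over all 8 mice (black circles, bar SE), without wild-type mouse 4 (orange squares, bar SE) and without mouse 4 of both groups (green triangles). Over all mice 38 points lie left of 0; without mouse 4 of both groups 19 do.

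Of the 40 members, 5 were not highest in wild-type mouse 4: Rfx2, Mcidas, Spag17, Tppp3 and Ak7, singled out after their values were seen. A different set of 4, Rfx3, Dnah7a, Mlf1 and Fam183b, was highest within the transgenic group in mouse 4, the mouse in which most members were lowest. Fam183b read 12.71, 12.35, 12.25 and 13.00 in transgenic mice and 12.47, 12.64, 12.36 and 14.04 in wild-type mice. Mlf1, first known from a leukaemia fusion, read 9.88, 9.47, 9.59 and 10.30 in transgenic mice and 9.53, 9.77, 9.32 and 11.02 in wild-type mice. In both genes mouse 4 was the highest of its group in each genotype. Of the 6 members with at least 2 spots above the floor, all 6 had differences of 1 sign across those spots.

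Genes of the motile cilium beyond the 40 followed the same mice. Of 62 listed, 56 were measured; 11 differences were positive and 45 negative, and 0 passed (limma). At an unadjusted p below 0.05 there were 2 higher and 2 lower, where 5.32% and 3.83% of all genes were. The median difference was -0.14. Without wild-type mouse 4, 36 were positive and 20 negative, with a median of 0.06, and without mouse 4 of both groups 41 were positive and 15 negative. Wild-type mouse 4 was the highest array for 38 of the 56. The gene with the smallest p, Dnah8, went against the pattern: it encodes a dynein heavy chain known from sperm tails and read 10.40, 10.64, 10.52 and 9.74 in transgenic mice and 9.25, 9.41, 9.11 and 8.65 in wild-type mice. The lowest transgenic value exceeded the highest wild-type value, as in 4% of all genes, and wild-type mouse 4 was the lowest. The difference of 1.22 (SE 0.24) missed the threshold (limma adjusted p = 0.149) and was 1.07 without wild-type mouse 4. Nme7, a nucleoside diphosphate kinase family member, also had groups that did not overlap (0.47, SE 0.15, limma adjusted p = 0.408), and Fhad1 had the largest negative difference (-0.75, SE 0.28, limma adjusted p = 0.469).

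Genes of intraflagellar transport and the BBSome, which primary cilia of many cell types also use, showed the pattern at a smaller size. All 31 were measured, 13 with positive and 18 with negative differences and a median of -0.01, and 0 passed (limma; 1 higher at an unadjusted p under 0.05, where 5.32% of all genes were). Without wild-type mouse 4, 19 were positive and 12 negative, and without mouse 4 of both groups 24 were positive and 7 negative, with a median of 0.12. The mean deviation was 0.27 in wild-type mouse 4, beside 0.69 for the ciliated cell genes, and -0.15 in transgenic mouse 4. Bbs12, a chaperonin-like protein of BBSome assembly, had the smallest p in this list (0.62, SE 0.23, limma adjusted p = 0.477).

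Marker genes of other airway and lung cells were read on the same arrays, and their part in the ciliated pattern was not tested. Club cell and airway secretory genes were also highest in wild-type mouse 4, with a mean deviation of 0.49 there and between -0.29 and 0.06 in wild-type mice 1 to 3, against -0.22 to 0.10 in the transgenic mice. Of 13 measured, 7 were highest in that mouse, and their median difference was -0.29, which was -0.14 without that mouse and -0.06 without mouse 4 of both groups. Their summed intensity ran from 215100 to 258100 in transgenic and from 196900 to 268200 in wild-type lung, and these sums are lower bounds because they include spots at the top of the scale. Each of these genes was above the floor in at least 1 group. None passed (limma, adjusted p at least 0.349; 1 higher and 2 lower at an unadjusted p below 0.05, where 5.32% and 3.83% of all genes were). Upk3a, a uroplakin with the smallest p of the list, had a difference of -0.73 (SE 0.22, limma adjusted p = 0.349), and its groups did not overlap. Of the 13 measured, 2 had all transgenic values below all wild-type values and 1 had them all above, where 2.53% and 4% of all genes did. Scgb1a1 and Cyp2f2 sat at the top of the scale, where no difference can be read.

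Goblet cell genes took the opposite course in transgenic mouse 4. Their mean deviation was -0.30, 0.36, 0.35 and 3.04 in transgenic mice. Wild-type mouse 4 stood at 0.34 and the other wild-type mice lay below every transgenic mouse, the lowest at -1.45, so mouse 4 was the highest of each group. All 5 were highest of the transgenic group in mouse 4, as were 6676 of all 20738 genes. None passed (limma). At an unadjusted limma p below 0.05, 1 of the 5 was higher, Clca1 (limma adjusted p = 0.284), where 5.32% of all genes were. Clca1, a secreted goblet cell protein, read 9.51, 12.02 and 12.44 in transgenic mice 1 to 3 and the top of the scale in mouse 4, and 6.58, 6.10, 5.59 and 10.10 in wild-type mice. Summed goblet intensity was lowest at 1305 and reached at least 70510 in transgenic lung, and ran from 390.1 to 1982 in wild-type lung. The highest sum and the deviation of 3.04 are lower bounds, since Clca1 was at the top of the scale there, and all 5 genes were above the floor in at least 1 group. Transgenic mouse 4 therefore joined the lowest ciliated level with the highest goblet level, while wild-type mouse 4 was the highest of its group in both.

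Of 6 basal cell genes, 5 had positive differences and Trp63, the basal cell transcription factor, a negative one (-0.52, SE 0.17, limma adjusted p = 0.427). Their mean deviation was 0.11 to 0.60 in transgenic and -0.72 to -0.29 in wild-type mice, with wild-type mouse 4 the lowest. The largest difference was that of the keratin Krt14 (2.79, SE 0.29), the 1 of 6 that passed (limma adjusted p = 0.0104, and 0.0860 without mouse 4 of both groups). Over all genes, 0.13% passed as higher. At an unadjusted limma p below 0.05, 4 of the 6 basal cell genes were higher and 1 lower, where 5.32% and 3.83% of all genes were. Alveolar type 1 genes were all lowest in transgenic mouse 4 (mean deviation -0.49, median difference -0.10, and 0.03 without mouse 4 of both groups), and alveolar type 2 genes had a mean deviation of -0.24 there and of -0.16 in wild-type mouse 4 (median difference -0.02). Cardiac muscle genes, which come with the pulmonary veins or heart, stood at -1.71 in transgenic mouse 4 and at 1.11 in wild-type mouse 1, and all 9 were lowest in transgenic mouse 4. Cartilage genes of the large airways gave little signal, with 9 of 10 under the floor in each group and a median difference of -0.13. The 9 smooth muscle genes all had negative differences, with a median of -0.34, and the 4 airway neuroendocrine genes had one of 0.10. No gene of the alveolar, cardiac, cartilage, smooth muscle or neuroendocrine lists passed (limma, adjusted p at least 0.215). At an unadjusted p below 0.05 there were 4 of 9 smooth muscle genes and 1 of 9 cardiac genes lower, where 3.83% of all genes were, and 1 of 4 neuroendocrine genes higher, where 5.32% were.

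**Figure D4:**
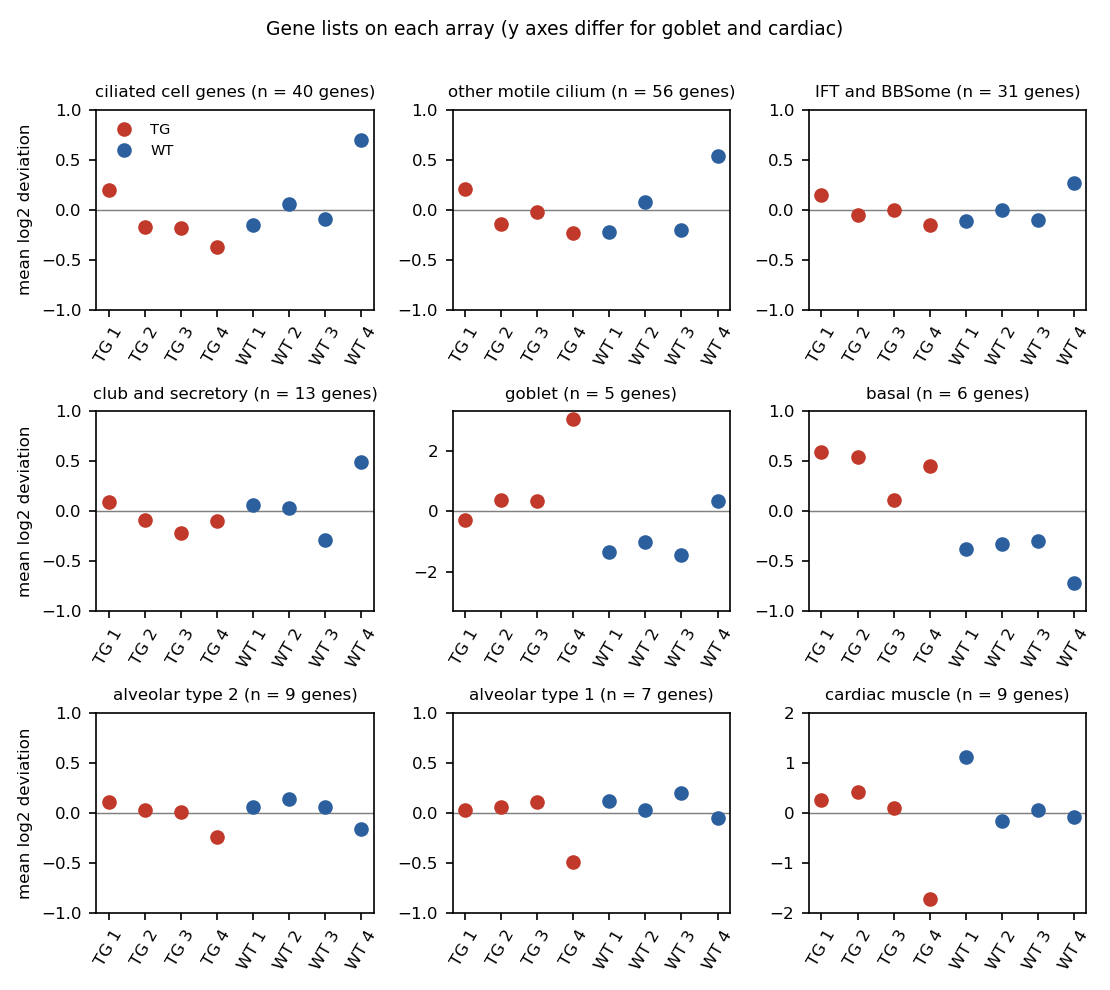
Mean log2 deviation from each gene's mean over 8 arrays, for 9 gene lists, on each array (transgenic in red on the left, wild type in blue on the right); the y axes of the goblet and cardiac panels are wider. Wild-type mouse 4 is the highest array for ciliated, other motile cilium, transport and club genes, and transgenic mouse 4 is the highest for goblet genes.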

How the data were processed

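Lung RNA of 8 samples was labelled for 1 colour with Agilent's QuickAmp kit for low input, as the labels' protocols state. The authors deposited linear intensity values for 62976 spots per array, and limma 3.14.4 under R 2.15.1 is named in the submitters' processing notes. How background was corrected and arrays normalised is not given in the sources used here. All arrays share 1 distribution (median 26.6, mean 1203 on each), so an overall shift between arrays would not be seen, and spots at the top of the scale carry no difference.

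Spots were named from the platform annotation, where 31465 had 1 symbol, 0 several and 31511 none here. Symbols were updated by RefSeq accession (29036 spots matched) or, failing that, by a unique older name in the GRCm38.p6 gene table (349 spots). The spot with the highest mean stood for each of 20738 genes. The log2 intensity, with no offset, was fitted with limma 3.58.1 (lmFit, eBayes), run in R 4.3.3 with no term but group, and p-values were adjusted by Benjamini-Hochberg over all genes with a threshold of 0.05. Differences are transgenic minus wild type. Exact permutation tests used scipy 1.17.1, and figures were drawn with matplotlib 3.10.9 in Python 3.11.15. The fit was tested on simulated data with known changes. Of log2 shifts of 0.5 and 1, 8% and 42% passed, and of shifts of 2 and 4, 92% and 98%. Most differences of 0.5 would therefore not pass.

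The 40 members and the lists were chosen with earlier results of these data known. Values on every array are given for the 6 regulators and, among the members, for the 3 brightest spots, the 5 largest differences and the 3 smallest p. From the other lists, counts and medians are given, with differences for some of the genes with the smallest p. Values of further genes are given where a pattern across mice was described, and these were picked after their values were seen. Alternatives were 2 scalings, 2 offsets, a filter on dim genes, the mean of all spots, 2 variance models, a threshold of 0.1, a replicate block and mice left out. Precision is limited by having 4 arrays a group.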

Additional observations from a re-analysis of the deposited data

Results flagged for a closer look

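In 9 of 80 groups of 4 values, 1 mouse lay far from the other 3 by Dixon's test at its 95% level. Chance flags about 1 in 20 groups, and members that vary together are not independent. In 5 of the 9 the mouse was wild-type mouse 4, and each time it was high: Dnah5 at 10.68 (8.87 to 9.14 in the other wild-type mice), Tekt4 at 10.92 (10.18 to 10.25), Hydin at 8.91 (7.93 to 8.09), Cdhr3 at 10.13 (9.32 to 9.40) and Fam183b at 14.04 (12.36 to 12.64). Transgenic mouse 4 was low for Mcidas at 11.91 (13.05 to 13.19 in the other transgenic mice) and for Tekt2 at 5.60 (6.79 to 6.98). Transgenic mouse 1 was high for Tekt4 at 10.49 (9.84 to 9.93). Transgenic mouse 2 was low for Dnah1 at 3.51 (4.88 to 5.12), under the floor for dim signals.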

How the results depend on the processing

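No member passed under any alternative run, and the lowest adjusted p over them was 0.280, for Rfx2 without mouse 4 of both groups. The median difference of the members, -0.28, stayed between -0.39 and -0.09 with any 1 mouse left out, and was 0.00 (0.0032) without mouse 4 of both groups, its only change of sign. The 2 other scalings gave -0.29 each, and the offsets of 16 and 32 gave -0.25 and -0.24. Of all 40 members, 12 differences changed sign without wild-type mouse 4, 3 without transgenic mouse 4 and 19 without mouse 4 of both groups. Among the 11 genes with values on every array by rule, which were followed under every alternative, the sign changed for Myb without mouse 4 of both groups (0.11) and, with 1 mouse left out, in a range from -0.15 to 0.13, for Rfx3 with the mean of all spots (-0.19) and, with 1 mouse left out, from -0.0769 to 0.31 (the mean of all spots includes one under the floor), and without mouse 4 of both groups for Dynlrb2 (0.0013) and Dnah3 (0.0075); the cause was not tested. Over all genes 46 passed (27 higher, 19 lower). This count became 80 and 88 with offsets of 16 and 32, 71 with the filter on dim genes, 85 with a variance trend, 76 at a threshold of 0.1, 20 to 38 with 1 mouse left out and 17 without mouse 4 of both groups, where fewer mice were fitted. The labels do not state that the mouse numbers pair the animals. Deviations of same-numbered mice correlated at 0.14, -0.0123, 0.148 and 0.076, which cannot decide whether they are paired. With the number as a replicate block, 5 genes passed over all genes and 0 members. With 4 mice a group, the 95% intervals of the members reached from -1.40 to 0.82, and spots near the floor for dim signals (Rfx3, Dnah1, Spef2) are the least certain.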
